A study of Mus musculus with 2 samples.

Results

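The 31 protein-coding Cfap genes, whose products are named for their association with cilia and flagella, were followed in the testis of adolescent mice. Members were the rows of the deposited table whose gene ID maps, in RefSeq's GRCm38.p6 table, to a protein-coding mouse symbol made of Cfap and a number, and these 31 stand among 44002 rows in all. RNA enriched with oligo(dT) beads came from testes of BALB/c mice on postnatal day 45. Of 2 sequenced libraries, 1 was from mice exposed to bisphenol A (BPA), an estrogen-like compound used to make plastics, and 1 from mice whose label carries no treatment, called control here. Per the series' design text, each library is a mixture of 3 samples. With 1 library a group, variation between samples of a group was not measured, and no comparison below could be tested between the conditions. The labels name neither the dose of BPA nor its route or timing.

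The tail of the sperm is built around the axoneme, a ring of doublet microtubules around a central pair. Dynein arms on the doublets slide them past each other, and radial spokes carry signals between the central pair and the arms. Further proteins line the inside of the doublets, tether the arms or help to assemble them in the cytoplasm. Cfap numbers were given to proteins found in the flagella of the green alga Chlamydomonas and to their animal relatives, so the family is joined by location and not by sequence. In the testis these genes are active mainly in meiotic and haploid germ cells, and loss of several of them, among them Cfap43, Cfap44, Cfap65 and Cfap69, is known to leave sperm with short or irregular tails and to cause male infertility.

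Many genes of cilia and flagella are controlled by RFX transcription factors, which bind a paired site called the X-box. Promoter sequences from RefSeq on GRCm38.p6, running from 250 bases before to 50 bases after an annotated start, were found for 24 of the 31 members. Of these 24 genes, 7 (29.2%) held, on either strand, the letters GTNNCC, then any 3 bases, then GNNAC, a loose form of the X-box, against 5.26% of all 27025 genes with a promoter sequence and 6.87% of 11671 protein-coding genes measured at 1 CPM (reads scaled to the library's total) or more. The matching stretches are shown because they are the letters that these 7 promoters have in common. Each is written 5′ to 3′ on the strand of its gene with the matched letters in capitals. In Cfap45 and Cfap44 the match is on the opposite strand, so the capitals there are its reverse complement.
Cfap206, chr4:34730201-34730244, minus strand: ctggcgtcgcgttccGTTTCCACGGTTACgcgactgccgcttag
Cfap298, chr16:90935009-90935052, minus strand: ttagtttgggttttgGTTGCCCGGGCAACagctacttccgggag
Cfap126, chr1:171122948-171122991, plus strand: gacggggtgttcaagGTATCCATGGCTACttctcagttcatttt
Cfap45, chr1:172521096-172521139, plus strand: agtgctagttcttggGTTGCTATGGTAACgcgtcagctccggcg
Cfap44, chr16:44394757-44394800, plus strand: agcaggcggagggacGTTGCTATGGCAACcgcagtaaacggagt
Cfap77, chr2:29055274-29055316, minus strand: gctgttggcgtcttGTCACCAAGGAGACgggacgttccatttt
Cfap61, chr2:145934761-145934804, plus strand: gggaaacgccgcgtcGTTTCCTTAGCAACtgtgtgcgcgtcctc

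The 7 genes with these stretches span the whole range of the family's levels, from Cfap206, the highest member, to Cfap61, the lowest but 1. Of the other motifs searched on both strands, the shorter GTTGCC, 1 arm of the site, which overlaps the X-box letters in some promoters, was found in 9 of the 24 genes (37.5%) against 14.1% of all genes. The narrower form with ATG as the 3 bases in the middle, contained in the loose one, was found in 1 gene (4.17%, Cfap126) against 0.581%. Cfap126 has several annotated starts, and its match lies only at the one farthest inside the gene (promoter chr1:171122795-171123094). Counted by promoter and not by gene, the loose form was found in 7 of 27 (25.9%) against 4.62% of all promoters. TGACGTCA, the full site of CREM and related factors, was found in 0 of the 24 genes against 2.03% of all genes, and its core TGACG in 5 (20.8%) against 23.0%. Among the 11671 measured protein-coding genes the shares were 15.8% for GTTGCC, 0.780% for the narrower form, 3.32% for TGACGTCA and 32.6% for TGACG. A match describes these letters and does not show that a factor binds there.

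All 31 members had a value above 1 CPM in both libraries, and 17 of them had a mean of 100 CPM or more. Together they held 5007 CPM with BPA and 5072 CPM in control, 0.503% and 0.508% of all listed values. The summed level with BPA was thus 0.987 times that in control, and the 95% interval, exact binomial by Clopper-Pearson, ran from 0.981 to 0.993. This interval, like all intervals given here, covers counting error only. It rests on 227194 and 212011 reads, taking the smallest step of the deposited values as 1 read. Because these are whole testes, fewer cells of a type and less RNA per cell cannot be told apart.

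Levels were compared between genes per kilobase of exons (CPM per kb), since a longer transcript yields more reads. Cfap206, a protein at the base of a radial spoke, was the highest member, at 281 CPM per kb with BPA and 286 CPM per kb in control. It lies on chromosome 4 (GRCm38, 34688574 to 34730263, minus strand). Cfap298, needed to assemble dynein arms, followed at 176 CPM per kb with BPA and 172 in control, and Cfap36, a partner of the ciliary GTPase Arl3, at 159 and 162 CPM per kb. These 3 genes kept their order in both libraries. Taken as a ratio (2.14-fold on average), the step down to the next member, Cfap97 with 72.6 and 77.6 CPM per kb, was the widest among the upper 29. Order and step depend on the length used. With the longest transcript in place of all exons, Cfap36 held rank 2, Cfap298 rank 3 and Cfap97 rank 7.

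**Figure D1:**
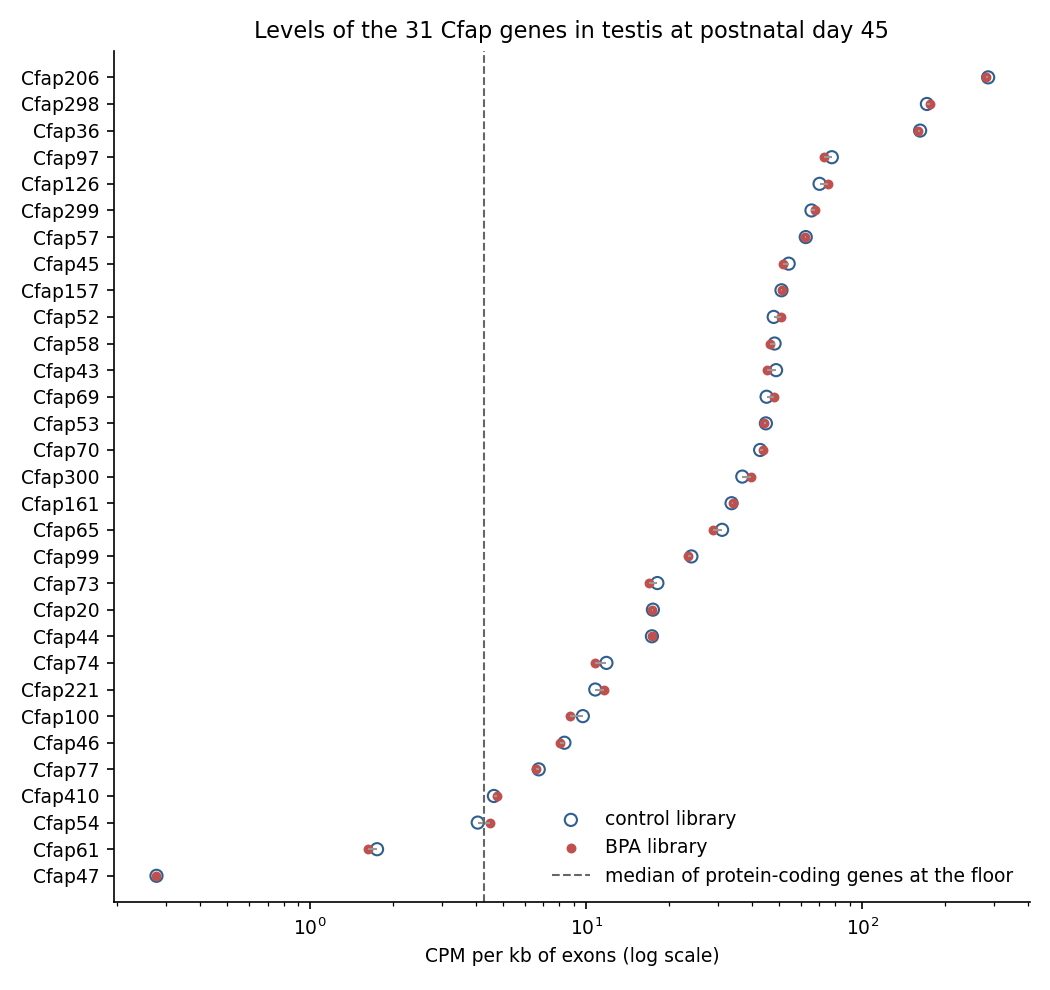
Level of each Cfap gene in CPM per kb of exons (log axis) in the control library (open circles) and the BPA library (filled circles), ordered by the mean; the dashed line marks the median of protein-coding genes that reached 1 CPM. The members run from 0.276 to 284 CPM per kb on average, and the 2 circles of each gene lie close together.

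The family as a whole was abundant. Its median level was 38.2 CPM per kb, against 4.25 CPM per kb over 14473 protein-coding genes at 1 CPM or more, and 29 of the 31 members lay above that median. Above the 90th percentile, 45.0 CPM per kb, stood 13 members. The 2 members below the median were Cfap61, a protein of the spoke base, with 1.62 CPM per kb with BPA and 1.75 in control, and Cfap47, a central apparatus protein encoded on the X chromosome (79266558 to 79517351, minus strand). Cfap47 was the lowest by far at 0.275 and 0.277 CPM per kb, on 123 and 114 reads, and the highest member exceeded it by 1027-fold. Cfap47, at 2.71 and 2.73 CPM, was also the member nearest the floor of 1 CPM, followed by Cfap73 at 15.5 and 16.7 CPM; no member lay under the floor.

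The order of the levels was nearly the same in both libraries. In 20 of 31 members the rank was identical, the largest shift was 3 places, and across the 31 genes the levels per kb had a Spearman correlation of 0.994, given as a description of 2 libraries that share gene lengths and alignment. Of 30 pairs of neighbours in the ranking, 14 had counting intervals that overlapped in at least 1 library, and 6 changed places. Of these 14 overlaps, 7 lay in a plateau from Cfap45 down to Cfap70, where 8 genes stood between 42.7 and 54.2 CPM per kb. Within the plateau Cfap58, Cfap43 and Cfap69 differed on average by only 1.01-fold from one to the next. This closeness holds for the length of all exons. By the longest transcript Cfap69 held rank 8, Cfap43 rank 11 and Cfap58 rank 15. Longer genes were lower per kb: the 13 members with under 3 kb of exons had a median of 49.2 CPM per kb and the 9 members with over 7 kb a median of 11.3 CPM per kb. The Spearman correlation of level per kb with exon length was -0.55 over the 31 members and -0.32 over all protein-coding genes at the floor, both values sharing the length as a divisor.

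The ratio between the libraries was small in every member. With a pseudocount of 0.1 CPM, the log2 ratio of BPA over control ran from -0.16 in Cfap100 to 0.15 in Cfap54, with a median of -0.01 and a robust SD (scaled median absolute deviation) of 0.07. By the same measures all 19389 genes that reached 1 CPM in either library had a median of 0.00 and a robust SD of 0.21, but they are mostly less abundant, with a median of 10.8 CPM against 113 CPM for the members. In the BPA library 13 members were higher and 18 lower than in control. No member was 2-fold or more apart in either direction, where 1.32% of all genes were higher and 1.95% lower by that rule. Among genes averaging at least 10 CPM, to which 30 of the 31 members belong, the share 2-fold apart was 0.671%. A share this low leaves less than 1 member to be found, so 0 of 31 is near the background.

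Outliers were sought among genes of like level, as members over 3 robust SDs from the median ratio of all genes in the same range of mean CPM. None of the 31 members lay so far out, against 2.99% of 18694 genes. The 17 members at 100 CPM or more had a robust SD of 0.08, equal to the 0.08 of all 2401 genes there. The 13 members between 10 and 100 CPM had a robust SD of 0.08 against 0.15 for 7578 genes. The member farthest from the median of its range, Cfap74, lay 1.47 robust SDs away. The largest log2 ratio of a member, 0.16 in size, was not exceeded by 74.0% of all genes averaging at least 10 CPM.

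**Figure D2:**
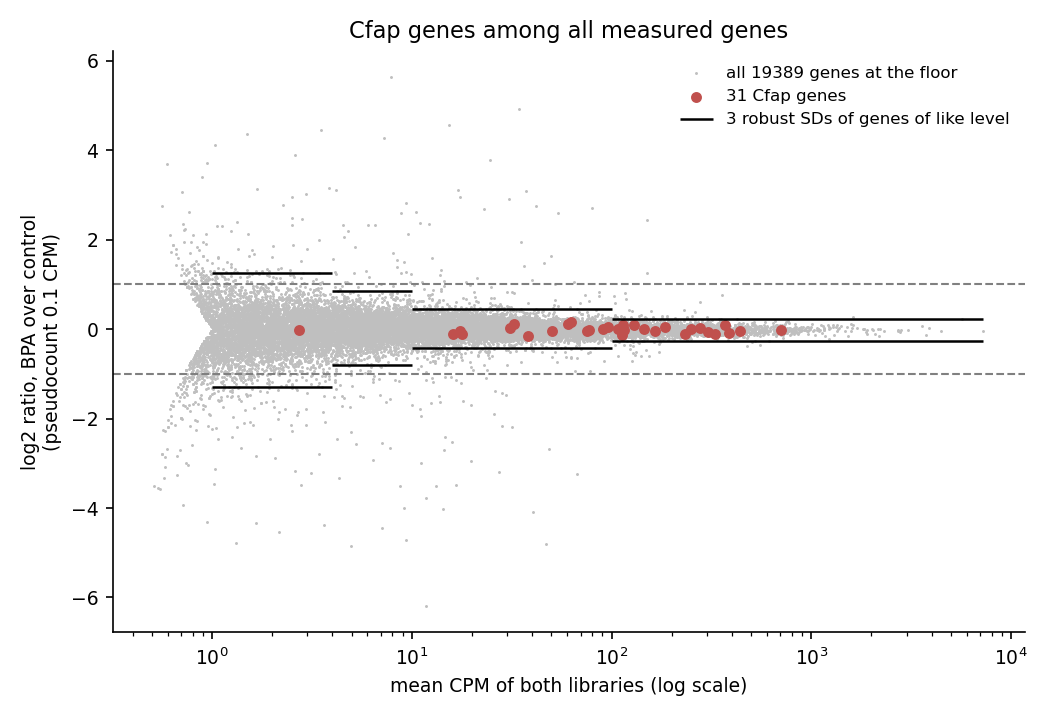
Log2 ratio of BPA over control (pseudocount 0.1 CPM) against the mean CPM of both libraries (log axis) for all genes that reached 1 CPM (grey) and the 31 Cfap genes (red); black lines mark 3 robust SDs around the median in 4 ranges of mean CPM and dashed lines 2-fold. The red points lie between -0.16 and 0.15, inside the black lines.

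Counting error alone did not cover all of these small ratios. The interval of the ratio included 1 in 16 members, lay above 1 in 6 and below 1 in 9. Among members with a mean of 10 CPM or more it included 1 in 15 of 30, and among all genes at that level in 51.1%. The median counting error of a member's log2 ratio was 0.03, less than the robust SD of 0.07 between members. How far samples of one group differ is unknown, so an interval that leaves out 1 compares these 2 libraries and not the conditions.

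In the central apparatus, which includes the central pair and its projections, 8 members split evenly. Cfap54, a large projection protein whose exons span 14.6 kb, stood at 65.8 CPM with BPA and 59.2 CPM in control, 1.11-fold higher (interval 1.05 to 1.17) and the highest ratio of the family. Cfap69 stood at 380 CPM with BPA against 356 CPM in control (1.07-fold, 1.04 to 1.09), and Cfap221 at 33.9 against 31.4 CPM (1.08-fold, 1.00 to 1.16). On the other side Cfap74 stood at 107 CPM with BPA against 118 CPM in control, 1.10-fold lower (1.05 to 1.14), and Cfap65 at 224 against 243 CPM, 1.08-fold lower (1.05 to 1.11). Thus genes for 1 structure differed in direction, and the largest of these ratios was 1.11-fold. Cfap70, also described with the outer dynein arms, Cfap46 and Cfap47 had intervals that included 1.

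Among the proteins that tether or adapt the inner dynein arms, 2 of 5 members, Cfap100 and Cfap43, had intervals below 1 and the intervals of the other 3 included 1. Cfap100 and Cfap73 form a complex that acts on an inner arm dynein. Cfap100 stood at 35.9 CPM with BPA against 40.1 CPM in control, 1.12-fold lower (1.04 to 1.19), the lowest ratio of the family, and Cfap73 at 15.5 against 16.7 CPM (ratio 0.930, 0.837 to 1.03). Cfap43, part of the tether of the dynein head, stood at 318 CPM with BPA against 344 CPM in control (1.08-fold lower, 1.06 to 1.11). Its partner in the tether, Cfap44, stood at 145 CPM in both libraries (ratio 1.00, 0.966 to 1.04), and Cfap57 at 250 and 251 CPM (0.997, 0.971 to 1.02). The median log2 ratio of these 5 genes was -0.10, the lowest of any role with more than 2 members. In the authors' deposited table Cfap43 had the smallest p-value of the family, 0.320, and all 31 members had a q-value of 0.99996, while 0.0956% of the rows with a q-value were called there.

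Both members that help to assemble dynein arms were a little higher with BPA. Cfap298 stood at 279 CPM with BPA and 273 CPM in control, with an interval that included 1 (0.999 to 1.05). Cfap300 stood at 63.0 CPM with BPA and 58.5 CPM in control, 1.08-fold higher (1.02 to 1.14). The 2 members of the radial spokes, Cfap206 at 699 against 710 CPM and Cfap61 at 17.2 against 18.5 CPM, were both a little lower. For Cfap61 the interval of the ratio included 1 (0.839 to 1.03), and for Cfap206 it ended just below 1 (0.968 to 0.9995).

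The proteins that line the lumen or the inner junction of the doublets numbered 7, with a median log2 ratio of -0.01. Cfap126 (133.6 CPM with BPA against 124.3 CPM in control; 1.07-fold, 1.04 to 1.12) and Cfap52 (117 against 111 CPM; 1.06-fold, 1.02 to 1.10) were higher, and Cfap45 (296 against 310 CPM; 1.05-fold lower, 1.02 to 1.07) was lower. For Cfap20, Cfap53, Cfap77 and Cfap161 the interval included 1. Summed, these 7 genes held 864 CPM in each library. Of 5 genes for proteins of the basal body, the ciliary base or the cytoplasm, Cfap97 (375 CPM with BPA against 400.3 CPM in control) was 1.07-fold lower (1.05 to 1.09). Cfap58 was 1.04-fold lower (1.00 to 1.07) and Cfap36 1.02-fold lower (1.00 to 1.04), while Cfap157 and Cfap410 had intervals that included 1. The remaining members, Cfap99 and Cfap299, were placed in no role and had intervals that included 1.

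**Figure D3:**
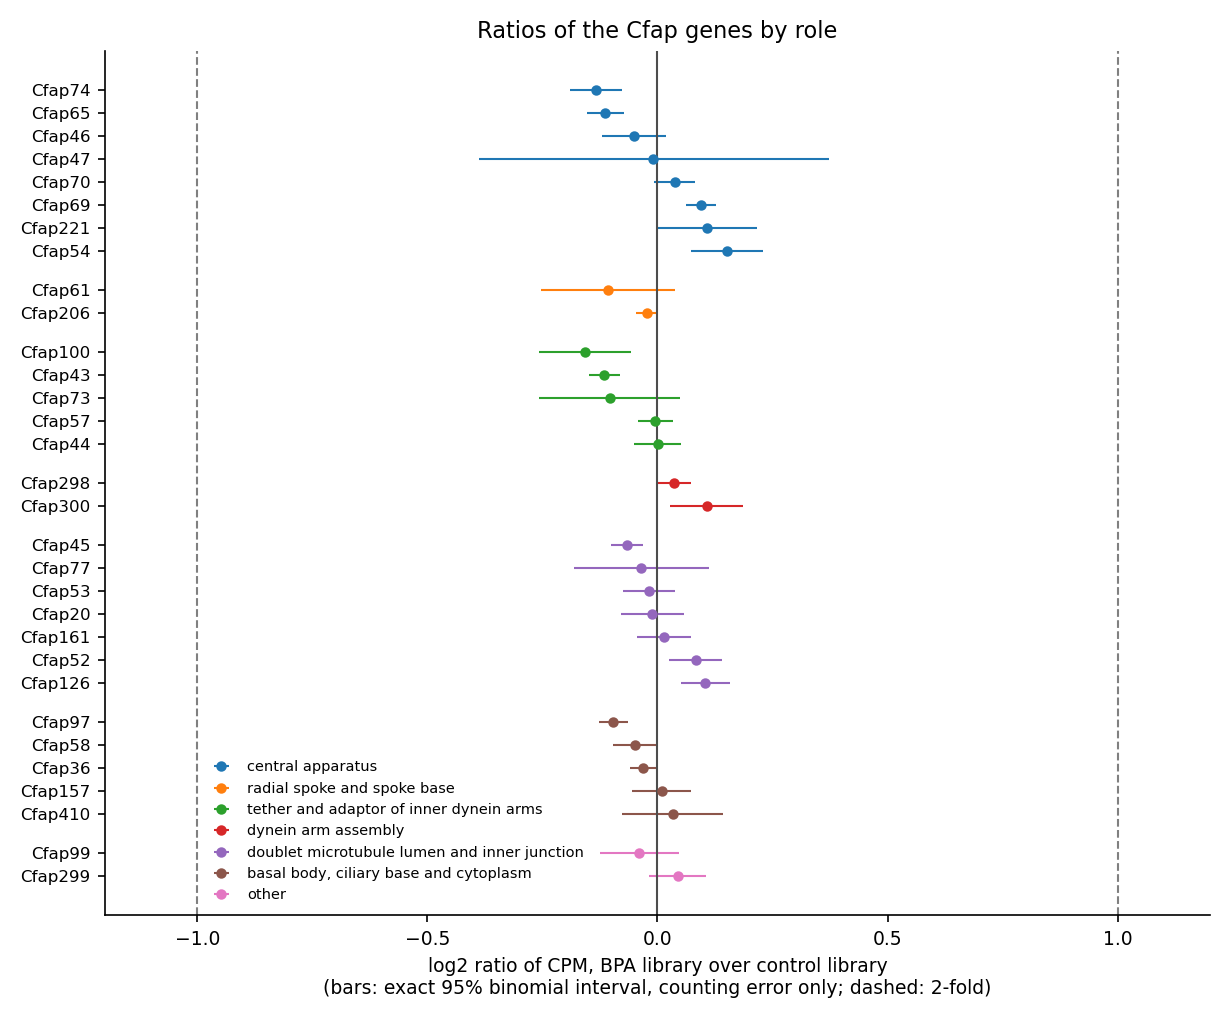
Log2 ratio of CPM of BPA over control for each Cfap gene, grouped by role (colours), with exact 95% binomial intervals that cover counting error only; dashed lines mark 2-fold. All points lie far inside the dashed lines, and the interval is widest for Cfap47, the least abundant member.

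Exons of 12 members (38.7%) overlap exons of another annotated gene in GENCODE M21, near the 37.1% of 9174 protein-coding genes averaging at least 10 CPM. The labels' protocol names no step that keeps the strand, and the annotation and strand setting used for counting are not given. How reads from the shared stretch were assigned is therefore unknown. The overlap covered between 3 and 851 bases. The 8 members with a log2 ratio under -0.06 (Cfap100, Cfap74, Cfap43, Cfap65, Cfap61, Cfap73, Cfap97 and Cfap45) were all among these 12. Both this grouping and the limit of -0.06 were set after the values were seen. For Cfap45 the overlap is only 3 bases and for Cfap100 only 12. The 19 members without such an overlap ran from -0.05 to 0.15 and were higher with BPA in 9 cases and lower in 10. Their summed level was 1.01 times the control level (0.999 to 1.01), against 0.959 (0.9499 to 0.968) for the 12 with an overlap. These sums rest on the same values that drew attention to the split, so their gap is no separate evidence. Over 9174 protein-coding genes at 10 CPM or more with a known length, the share under -0.06 was 29.2% with and 29.1% without an exon overlap. Of Cfap97, 7.23% of its 50-base words also occur in a processed pseudogene, AC154343.2, and no other member shared more than 5%.

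The position of the members followed no single locus, with 15 chromosomes holding at least 1. Cfap43 and Cfap58 are neighbours on chromosome 19, 100 kb apart, and both were a little lower with BPA.

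Other genes of the axoneme were set beside the family. Of 102 genes outside it at 1 CPM or more, from 7 lists of axoneme parts and their regulators with Iqub in 2 of them, 0 were 2-fold higher and 1 was 2-fold lower, 0.980% of them against 3.28% of all genes in either direction. That gene was Dnah5, an outer arm dynein heavy chain, at 0.661 CPM with BPA and 1.87 CPM in control (2.82-fold lower, 1.83 to 4.46, on 30 and 78 reads). The BPA value of Dnah5 is listed as 0 and was rebuilt from the authors' log2 fold change. The 3.28% includes many genes of low level. Among all genes averaging at least 10 CPM, a level that Dnah5 does not reach, the share was 0.671%. Of the 102 axoneme genes 100 reached 4 CPM in the higher library, and 0 of these were 2-fold apart. The median log2 ratio of the 102 genes was -0.02 and their robust SD 0.10. By list the medians were 0.00 for 10 further central apparatus genes, 0.03 for 14 radial spoke genes, 0.02 for 9 genes of the nexin-dynein regulatory complex, and -0.02 for 18 further genes of the doublet lumen. They were -0.04 for 25 dynein arm subunits and -0.03 for 18 genes of arm assembly. Transcription factors of cilia genes had a median of -0.05, with 8 of 9 lower with BPA, while Mcidas and Gmnc were listed at 0. The share of all genes lower with BPA was not counted, but their median was 0.00. The log2 ratios of the 9 factors ran from -0.14 in Rfx3 to 0.00 in Mybl1. Those of Rfx4, Tcfl5 and Crem were -0.01, -0.02 and -0.03. Among the lower factors, Rfx2, the RFX factor of germ cells, stood at 456 CPM with BPA and 490 CPM in control (log2 ratio -0.10). Foxj1, a regulator of motile cilia, stood at 123 and 134 CPM (log2 ratio -0.13).

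**Figure D4:**
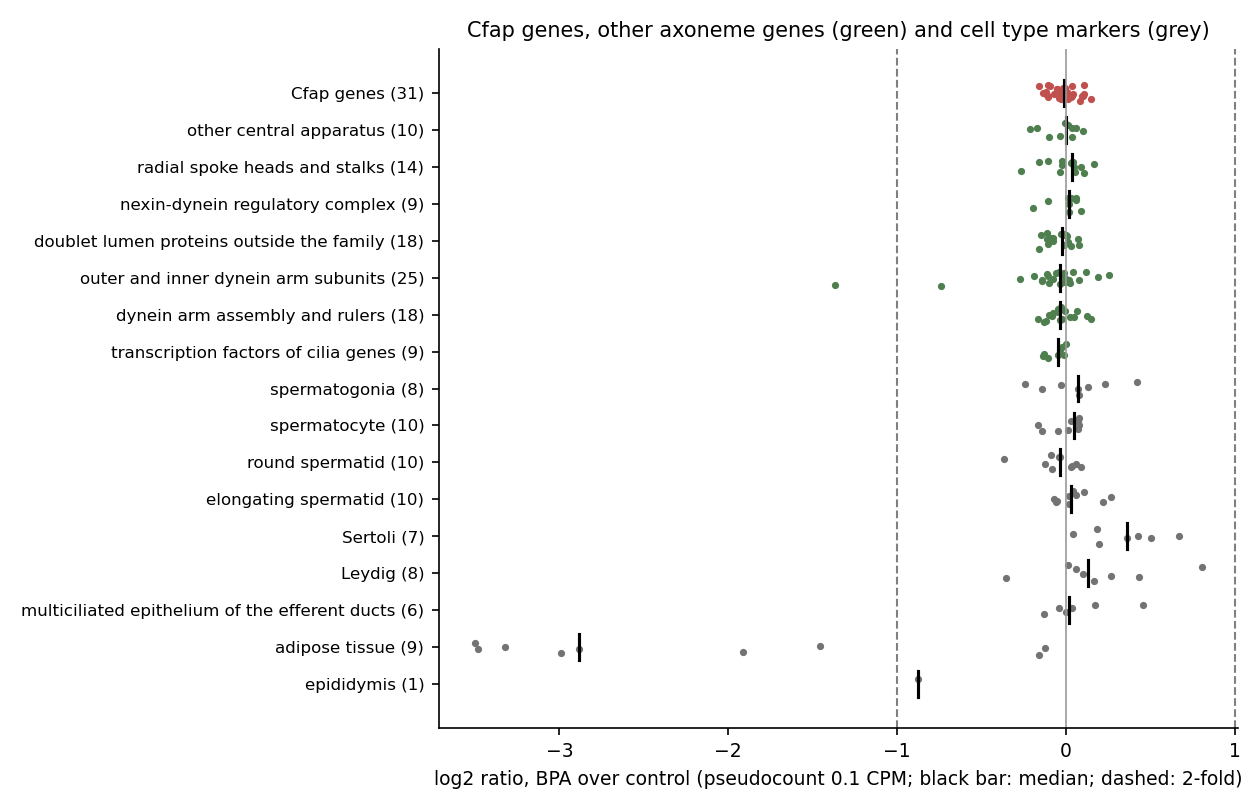
Log2 ratio of BPA over control (pseudocount 0.1 CPM) for each gene at 1 CPM or more in the Cfap family (red), in 7 lists of other axoneme genes and their regulators (green) and in lists of cell type markers (grey), with the number of genes in parentheses; black bars are medians and dashed lines 2-fold. Cfap and axoneme lists have medians from -0.05 to 0.03, with the 2 dynein genes Dnah5 and Dnah12 far to the left, Sertoli markers lie above 0 and adipose markers below it.

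Defining markers of the germ cells were present, as the label of the tissue requires. All 10 round spermatid and 10 elongating spermatid markers were measured at 1 CPM or more, with medians of -0.04 and 0.03, and the 10 spermatocyte markers had a median of 0.05. The elongating spermatid markers summed to 22018 CPM with BPA and 20779 CPM in control. Sertoli cell markers, with 7 of 8 measured and Inhba listed at 0, had the median 0.36 with 7 of 7 above 0 and summed to 910 and 795 CPM. Clu alone held 816 and 718 CPM of these sums, and Amh, the gene at the median, stood at 5.69 CPM with BPA and 4.40 CPM in control. Adipose tissue markers numbered 9, all measured, and 7 of them were 2-fold or more lower with BPA, against 1.95% of all genes. The other 2 were within 2-fold, Adipoq at 15.4 CPM with BPA and 17.2 CPM in control and Plin1 at 4.47 and 4.88 CPM. The 9 adipose markers had a median of -2.89 and summed to 27.4 and 88.9 CPM. Of 10 markers of the multiciliated epithelium of the efferent ducts, another possible source of Cfap transcripts, Mcidas, Gmnc, Cdhr3 and Sntn were listed at 0 in both libraries. The other 6 had a median of 0.02 and summed to 831 and 840 CPM, and some of them, such as Foxj1, are also expressed in germ cells. Spermatogonial markers (8 genes) had a median of 0.07 and sums of 138 and 135 CPM, and Leydig cell markers (8 genes) a median of 0.13 and sums of 922 and 865 CPM. Of 8 epididymis markers 6 had a value, 5 of these listed at 0 in both libraries. The part of these cell types in the ratios of the Cfap genes was not tested.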

How the data were processed

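The members and gene lists were chosen with earlier results of these data known. Cfap221, matched in an axoneme list by its older symbol Pcdp1, was left out of that list. The tools named in the submitters' processing notes are HISAT2 2.0.4 and HTSeq 0.6.1, and the build is mm10. Not given in the sources used here are the annotation, the strand setting, the scaling and the software that made the p-values. The deposited table holds CPM for each library (headed as read counts), the log2 fold change, and the authors' p-value and q-value. These CPM values are whole multiples of 1 step per library, the value of 1 read, which puts the full scale at 45377693 reads (BPA) and 41801885 reads (control). Values under 1 CPM are listed as 0, and 812 (BPA) and 592 (control) of them were refilled from the deposited log2 fold change, none in a member. Refilled values include those of Dnah5 and Cfap97d2 with BPA and of 5830444B04Rik in control. The adipose markers Cidec, Cfd, Lep and Plin4 were also refilled in the BPA library. No count model was fitted. Of 41571 numeric gene IDs, 40269 matched RefSeq GRCm38.p6. Exon lengths, overlaps and 50-base words came from GENCODE M21. Log2 ratios used a pseudocount of 0.1 CPM and a floor of 1 CPM in the higher library; robust SDs are 1.4826 times the median absolute deviation. Ratios printed with an interval carry no pseudocount. The ratio and interval code was tested on simulated data. Genes named are the 10 highest and 5 lowest per kb, the 8 largest ratios in each direction at 4 CPM or more, the highest and lowest of each role, members called or apart (none) and list genes 2-fold apart. The other members were named after their values were seen. Some list genes, such as Rfx2 and Foxj1, were named outside these rules. Neighbouring genes were to be described for members standing apart, and none did. Python 3.11.15, numpy 2.4.6, scipy 1.17.1 and pandas 2.3.3 were used. The values of 1 overlapping gene are not reported here.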

Additional observations from a re-analysis of the deposited data

How the results depend on the processing

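Scaling by trimmed means (TMM) or by the median ratio, a floor of 4 CPM or none, a pseudocount of 1 CPM, a limit of 1.5-fold or of 4 robust SDs, and listed zeros taken as 0 left the number of Cfap genes called or apart at 0. Over all genes, 256 were 2-fold higher and 379 lower in the main setting. These counts ran from 80 and 103 with a floor of 4 CPM to 1938 and 2582 with none. At 1.5-fold they were 828 and 1042. The median log2 ratio stayed between -0.02 and 0.00 under these scalings, floors and pseudocount and without the members whose exons overlap another gene, and the robust SD between 0.05 and 0.08. Leaving out the overlapping members, an alternative chosen after seeing the data like that of the listed zeros, moved the ratio of summed CPM from 0.987 to 1.01 (19 members remain; the cause was not tested). Cfap206 remained the highest member with 314 CPM per kb by its longest transcript and 286 CPM per kb in the control library alone, against 284. The ranking by longest transcript had a Spearman correlation of 0.974 with the main one, but only 4 of 31 members kept their rank and the largest move was 5 places. The 1 other axoneme gene 2-fold apart, Dnah5, became 0 with a pseudocount of 1 CPM and 0 with a floor of 4 CPM, which it does not reach. By GENCODE symbols 29 members would be found, without Cfap410 and Cfap47, and 30 members reach 4 CPM. No paired analysis was possible because each group has 1 library. With 1 library per group, differences smaller than the spread between animals cannot be recognised.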

Other observations

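Symbols with a suffix fall outside the family's rule. Cfap97d1, a relative of Cfap97, stood at 76.2 CPM with BPA and 70.1 CPM in control (1.09-fold, 1.03 to 1.14), and Cfap20dc at 14.4 and 14.6 CPM. Cfap97d2 was near the floor, at 0.375 CPM with BPA and 1.05 CPM in control, a ratio of 0.356 (0.191 to 0.636). Ppip5k2, which RefSeq lists with Cfap160 as another name, stood at 59.5 and 62.5 CPM. Among the dynein arm genes Dnah12 had the lowest log2 ratio after Dnah5, -0.74, at 14.7 CPM with BPA and 24.6 CPM in control; both were named after their values were seen.

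Of the genes whose exons overlap a member, 8 had values, 6 higher and 2 lower with BPA. The only one 2-fold apart, 5830444B04Rik, overlaps Cfap74 by 453 bases on the other strand and stood at 1.45 CPM with BPA and 0.646 CPM in control. Itprip, the only one with values on the same strand as its member, overlaps Cfap43 by 164 bases and stood at 112 and 118 CPM. Snx25, which overlaps Cfap97 by 132 bases on the other strand, stood at 79.0 CPM with BPA and 77.9 CPM in control. Ddx54, which overlaps Cfap73 by 78 bases, stood at 124 and 132 CPM, and Zxdc, which overlaps Cfap100 by 12 bases, at 9.76 and 9.11 CPM. Crnkl1, which overlaps Cfap61, and 4933439K11Rik, which overlaps Cfap45, had log2 ratios of 0.03 and 0.13.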
